A study of Homo sapiens with 14 samples.

Results

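The question here is whether lenalidomide changed gene expression differently in SH-EP cells of the n-Myc SPARK-ON line and in SH-EP cells of the line labelled n-Myc control. Members were chosen as the samples of those 4 groups, 11 of the 14 samples in the series: 3 SPARK-ON samples with lenalidomide, 3 SPARK-ON samples in DMSO, 2 control samples with lenalidomide and 3 control samples in DMSO. The quantity is the response difference: the log2 change with lenalidomide in SPARK-ON cells minus the log2 change with lenalidomide in control cells. A positive value means that a gene's level with lenalidomide, relative to DMSO, was higher in SPARK-ON cells than in control cells, and either line can produce it.

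SH-EP is an established human neuroblastoma line, and polyadenylated RNA was sequenced from each sample. The SPARK-ON cells are described by the submitters as a single clone in which n-Myc stays below the level at which it separates into condensates, and in which lenalidomide is added to bring about that separation at the same protein concentration. The control line, whose label also names n-Myc and whose MYCN level was similar, lacks SPARK-ON and serves to show what lenalidomide does by itself. DMSO, the vehicle, is the reference in both lines. The labels used here give no dose and no time, and do not say whether the control line is also 1 clone. They number the replicates without saying that these were separate cultures, so each p-value measures only the spread between these samples.

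Lenalidomide binds cereblon, the substrate receptor of a ubiquitin ligase, and acts as a molecular glue that brings new protein substrates to it. n-Myc, encoded by MYCN, is a transcription factor that binds DNA at E-boxes with its partner MAX. It is known in neuroblastoma for raising genes of ribosome production, nucleotide synthesis and growth, and for lowering genes such as CDKN1A.

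The libraries held between 6614671 and 21511684 reads assigned to genes, the lowest being SPARK-ON lenalidomide replicate 3. VIM, CD44, FN1, YAP1 and PRRX1, markers of the mesenchymal state for which SH-EP is known, were present in every library, with VIM at 500 counts per 1e6 assigned reads (CPM) or more. PHOX2A, a transcription factor of the adrenergic state, was at 0 throughout. The summed level of 24 markers of other cell types was 75.9 to 93.3 CPM in SPARK-ON libraries and 37.0 to 37.8 CPM in control libraries. Most of that sum came from KRT8 (2.73 to 33.9 CPM over all libraries), KRT18 (10.1 to 23.9 CPM) and MBP (13.4 to 25 CPM). Every other marker stayed at or below the 4.41 CPM that GFAP reached. CD3E, HBA1, HBB and MYOD1 were at 0 in every library. The part of these markers in the results was not tested.

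Libraries stood apart in both lines. SPARK-ON lenalidomide replicate 3, the library of the lowest depth, had a score of -50.6 on the second principal component, and the other 10 libraries lay between -4.70 and 13.7. Without it, 0 genes were called for the response difference and 601 had an unadjusted p below 0.05, against 0 and 669 with it. Within the control line, DMSO replicate 1 and lenalidomide replicate 2 stood apart from the other libraries. Their scores on the third principal component were -38.9 and -16.6, and those of the other 3 control libraries lay between 15.1 and 20.8. The chi-square per gene between replicates was 2.42 to 3.31 for the pairs of SPARK-ON libraries, against 29.5, 25.3 and 4.83 for the control DMSO pairs and 14.8 for the control lenalidomide pair. The same libraries differed in the balance of short and long transcripts. A length index was computed as the mean log2 CPM of 771 genes whose longest transcript is under 1500 bases minus that of 2287 genes whose longest transcript is at least 6000 bases. It was 0.093 in control DMSO replicate 1 and -0.135 in control lenalidomide replicate 2, against -0.569, -0.486 and -0.526 in the other control libraries and -0.419 to -0.276 in SPARK-ON libraries. The part of these differences in the results was not tested.

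**Figure D1:**
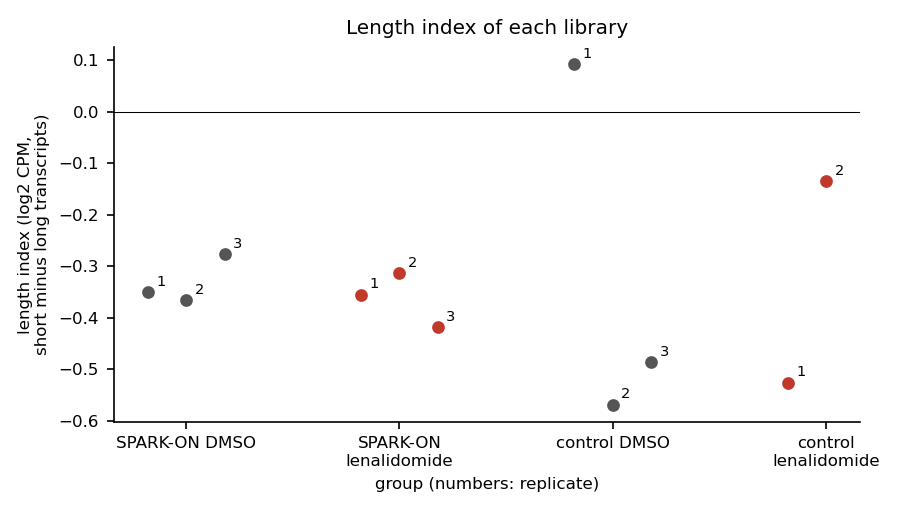
Length index of each library, in log2 CPM of genes with short transcripts minus genes with long ones, by group, with numbers giving the replicate. Control DMSO replicate 1 (0.093) and control lenalidomide replicate 2 (-0.135) lie above the other 9 libraries, which lie between -0.569 and -0.276.

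No gene passed the test for a response difference. Of 16056 genes tested with edgeR's quasi-likelihood test, 0 were higher (0%) and 0 were lower (0%) in SPARK-ON at a Benjamini-Hochberg adjusted p below 0.05. At an unadjusted p below 0.05 there were 669 genes (4.17%), no larger a share than the threshold itself would give if no gene differed. Of these, 366 (2.28%) had a difference above 0 and 303 (1.89%) a difference below 0. The smallest p, that of GNAZ, was 2.94e-05 (adjusted p = 0.471), and a first call would have needed 3.11e-06. limma-voom also called 0 genes, with or without a weight for each line, and DESeq2 called 3, GNAZ, FBXO32 and IGFBP4, all higher.

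The size of difference that these libraries could show depended on expression level. The median standard error of the difference was 0.16 on the log2 scale over the 10638 genes with a mean of at least 5 CPM, against 0.10 for the change in SPARK-ON and 0.11 for the change in control. These errors rest on a spread pooled over both lines. Fitted alone, the spread between replicates was 4.71% in SPARK-ON and 12.9% in control, where no gene was called. Errors and adjusted p-values given below for a control change therefore understate the control spread. The 95% interval of a difference reached a median of 0.49 to either side at 5 to 20 CPM, 0.31 at 20 to 100 CPM and 0.24 above 100 CPM. The median change itself, without regard to sign, was 0.073 in SPARK-ON and 0.074 in control. Across these genes the changes in the 2 lines had a Pearson correlation of 0.14 and a Spearman correlation of 0.10, given as a description, since genes are not independent and libraries of a line are shared by all of them.

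**Figure D2:**
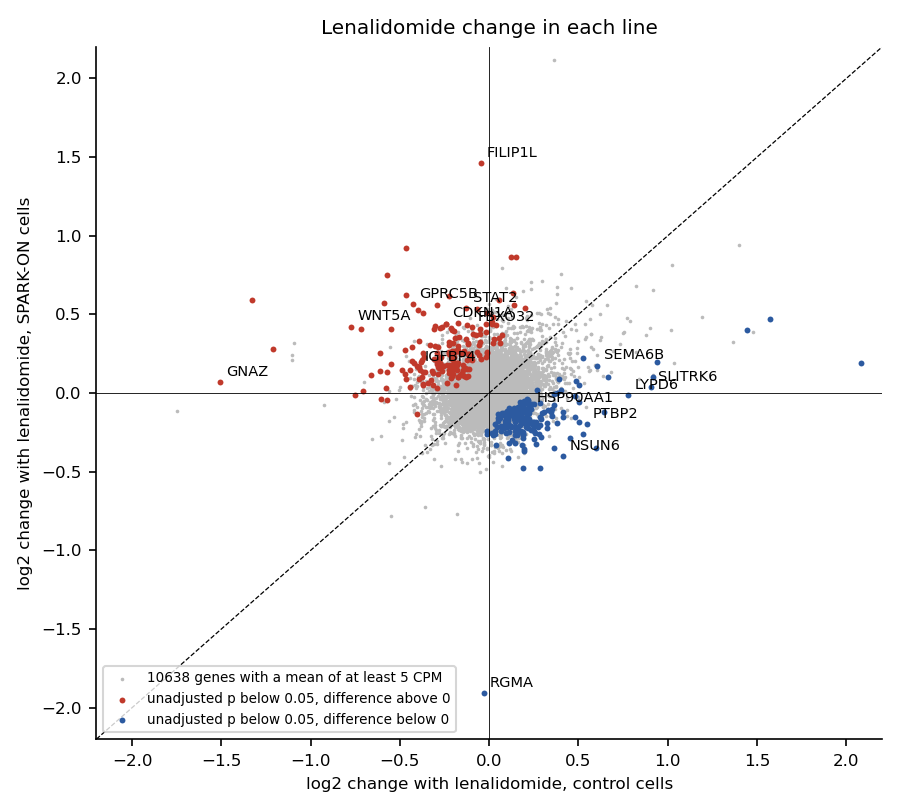
Log2 change with lenalidomide in control cells (x axis) and in SPARK-ON cells (y axis) for the 10638 genes with a mean of at least 5 CPM; coloured genes had an unadjusted p below 0.05 for the difference, and the dashed line marks equal change. Named genes lie along both axes, with GNAZ far to the left and RGMA far down, and 13 genes fall outside the axes, which end at 2.2.

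The genes at an unadjusted p below 0.05 for the difference were split by the line whose own change passed that threshold. Among the 669, the change had an unadjusted p below 0.05 in SPARK-ON alone for 197 genes, in control alone for 248, in both lines with opposite signs for 25 and in both with the same sign for 4, while 195 had it in neither. Among the 380 with a mean of at least 5 CPM the counts were 125, 108, 17, 3 and 127, and 340 of these 380 genes had changes of opposite sign in the 2 lines. These are descriptions of a set chosen on the difference itself. The set is no larger than the threshold could give if no gene differed, so neither line is read as its source.

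MYCN, whose product the SPARK-ON design acts on, was at 2248, 2398 and 2186 CPM in SPARK-ON DMSO and at 2618, 2420 and 2485 CPM with lenalidomide. It was at 2089, 2574 and 2615 CPM in control DMSO and at 2762 and 2330 CPM with lenalidomide. The lenalidomide samples all lay above the DMSO samples in SPARK-ON by a small margin, and the groups overlapped in control. The response difference was 0.07 (95% interval -0.19 to 0.33, edgeR adjusted p = 0.9999). Reads from the MYCN locus (GRCh38 chr2:15940564-15947007) and from an introduced MYCN cannot be told apart in these counts, and the gene overlaps MYCNOS on the other strand.

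Further genes of the mechanism were named by rule, and none was called. CRBN, which encodes cereblon, had a difference of 0.10 (95% interval -0.12 to 0.32). MAX, the partner of n-Myc, had a difference of -0.16 (-0.48 to 0.17). MYC, the paralog of MYCN, was low, between 3.29 and 8.38 CPM in all libraries, and had a difference of 0.61 (-0.11 to 1.33). IKZF1, a lymphoid transcription factor whose protein is a known lenalidomide substrate, had the smallest p of 26 tested genes of the cereblon ligase and its substrates. Its levels were 49.98, 36.3 and 35.9 CPM in SPARK-ON DMSO, 54.3, 47.8 and 48.7 CPM in SPARK-ON with lenalidomide, 22.3, 19.8 and 21.6 CPM in control DMSO and 17.1 and 16.7 CPM in control with lenalidomide. The SPARK-ON groups overlapped and the control groups did not, and the difference was 0.64 (0.26 to 1.02, edgeR adjusted p = 0.9999).

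The genes of the smallest p with a difference above 0 included regulators of growth and of signalling. GNAZ, a G protein alpha subunit, was at 4.62, 6.14 and 4.35 CPM in SPARK-ON DMSO and at 4.36, 5.57 and 6.18 CPM with lenalidomide. In control cells it was at 10.8, 12.9 and 11.99 CPM in DMSO and at 3.60 and 4.68 CPM with lenalidomide. Its difference therefore lay on the control side: both control samples with lenalidomide were below all 3 in DMSO, and the SPARK-ON groups overlapped. The change was -1.51 ± 0.21 (SE) in control (edgeR adjusted p = 0.0118) and 0.07 ± 0.20 in SPARK-ON, and the difference was 1.58 (0.98 to 2.18). GNAZ lies at GRCh38 chr22:23070361-23125037 and overlaps RSPH14 on the other strand; no source used here gives the strand setting, so their reads cannot be told apart.

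FBXO32, the muscle ubiquitin ligase subunit atrogin-1, lay on the SPARK-ON side. It was at 228, 207 and 235 CPM in SPARK-ON DMSO and at 296, 286 and 314 CPM with lenalidomide, so that the groups did not overlap. In control cells it was at 181, 174 and 175 CPM in DMSO and at 159 and 171 CPM with lenalidomide, also without overlap but in the other direction. The change was 0.42 ± 0.07 (SE) in SPARK-ON (adjusted p = 0.0263) and -0.10 ± 0.08 in control, and the difference was 0.52 (0.30 to 0.74, edgeR adjusted p = 0.725).

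In IGFBP4 and CDKN1A the lines had changes of opposite sign. IGFBP4, which binds insulin-like growth factors, was at 312, 313 and 360 CPM in SPARK-ON DMSO and 369, 379 and 357 CPM with lenalidomide. The control levels were 122, 106 and 114 CPM in DMSO and 81.4 and 91.9 CPM with lenalidomide. The SPARK-ON groups overlapped, the control groups did not, and the difference was 0.56 (0.31 to 0.82, edgeR adjusted p = 0.725).

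CDKN1A encodes the cyclin-dependent kinase inhibitor p21, a target of p53. It was at 38.9, 33.7 and 39.1 CPM in SPARK-ON DMSO and at 51.4, 52.1 and 48.0 CPM with lenalidomide. Levels in control cells were 35.8, 31.1 and 35.1 CPM in DMSO and 25.98 and 31.5 CPM with lenalidomide. All SPARK-ON samples with lenalidomide lay above those in DMSO, while the control groups overlapped. The change was 0.44 in SPARK-ON and -0.24 in control, and the difference was 0.68 (0.37 to 0.996, edgeR adjusted p = 0.725). Other p53 targets did not share this direction as a set. Of 20 tested genes in a list of p53 targets, 9 had a difference above 0 and 11 below, with a median of -0.018. CDKN1A was the only member with an unadjusted p below 0.05.

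The other 6 genes named above 0 had differences from 0.62 to 1.51, each with an edgeR adjusted p of 0.725 or more. FILIP1L was at 0.460 to 0.726 CPM in SPARK-ON DMSO and at 1.18 to 1.96 CPM with lenalidomide, low levels on which its difference of 1.51 rests, against 13.1 to 15.6 CPM in control cells. STAT2, a transducer of interferon signals, was at 14.6 to 15.1 CPM in SPARK-ON DMSO and 20.7 to 22.4 CPM with lenalidomide, and at 14.7 to 17.0 CPM in all control samples (difference 0.67). TNFRSF19, a receptor of the tumour necrosis factor family, had a difference of 0.62, mostly from SPARK-ON. WNT5A, a secreted Wnt ligand (1.195), and the orphan receptors GPRC5B (0.99) and GPR153 (0.95) had opposite changes in the lines, and WNT5A was at 1.33 to 3.03 CPM in control cells. GPRC5B was at 1.52 to 3.21 CPM in SPARK-ON cells, so its change there rests on low levels, against 16.25 to 26.27 CPM in control cells.

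Among genes with a difference below 0, RGMA and LYPD6 came from different lines. RGMA, a guidance molecule that binds neogenin, was at 1.74, 1.25 and 1.64 CPM in SPARK-ON DMSO and at 0.242, 0.367 and 0.883 CPM with lenalidomide. In the control line, levels were 21.9, 20.8 and 16.4 CPM in DMSO and 19.2 and 19.3 CPM with lenalidomide. The SPARK-ON groups did not overlap and the control groups did, and the difference of -1.88 (-2.74 to -1.02, edgeR adjusted p = 0.725) rests on low counts in SPARK-ON.

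LYPD6, a regulator of nicotinic receptors and of Wnt signalling, was at 9.36, 8.78 and 8.69 CPM in SPARK-ON DMSO and at 9.27, 8.07 and 9.41 CPM with lenalidomide. In control cells it was at 12.4, 10.2 and 11.8 CPM in DMSO and at 19.1 and 20.2 CPM with lenalidomide, with no overlap. It rose in control cells by 0.78 ± 0.13 (SE, edgeR adjusted p = 0.0409), and the difference was -0.79 (-1.19 to -0.40, adjusted p = 0.869).

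SEMA6B, a transmembrane semaphorin, was at 206, 192 and 195 CPM in control DMSO and at 283 and 318 CPM with lenalidomide. In SPARK-ON cells it was at 103, 93.2 and 117 CPM in DMSO and at 122, 109 and 123 CPM with lenalidomide. It rose in control cells by 0.61 (edgeR adjusted p = 0.0255), the SPARK-ON groups overlapped, and the difference was -0.43 (-0.70 to -0.16). SLITRK6, which controls neurite growth, had a control change of 0.91 and a difference of -0.87 (-1.39 to -0.35).

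A further 5 genes named below 0 had changes of opposite sign in the lines. HSP90AA1, the inducible cytosolic HSP90 chaperone, was at 5571, 5399 and 5481 CPM in SPARK-ON DMSO and 4990, 5228 and 5151 CPM with lenalidomide. In control cells it was at 4521, 4807 and 4738 CPM in DMSO and 5732 and 5252 CPM with lenalidomide. Neither line's groups overlapped, in opposite directions, the change was -0.10 in SPARK-ON and 0.23 in control, and the difference was -0.33 (-0.50 to -0.16, edgeR adjusted p = 0.9999). PTBP2, a splicing regulator of neurons, had a difference of -0.75, and the RNA methyltransferases NSUN6 and NSUN3 had differences of -0.82 and -0.51. MOB4 (-0.46) overlaps HSPD1 and the readthrough gene HSPE1-MOB4, so that its reads are uncertain. The same limit holds for other named genes that overlap a gene on the other strand. Among them are FILIP1L (CMSS1), GPRC5B (IQCK) and HSP90AA1 (WDR20).

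**Figure D3:**
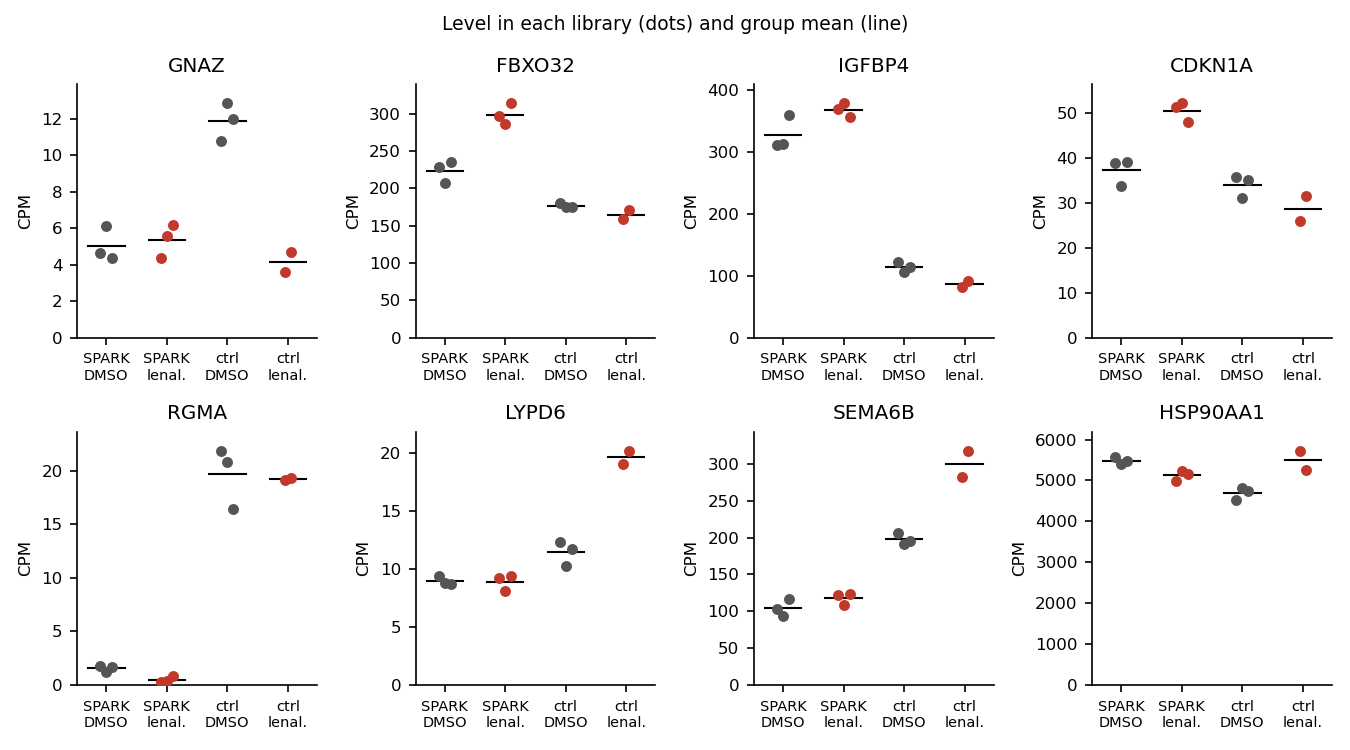
Level of 8 genes in CPM (y axis, from 0) in each library (dots, lenalidomide in red) and each group's mean (line), by line and treatment (x axis; SPARK is SPARK-ON, ctrl is control, lenal. is lenalidomide). GNAZ, LYPD6 and SEMA6B differ between treatments mainly in control cells, and FBXO32 and RGMA mainly in SPARK-ON cells. IGFBP4 and CDKN1A have opposite changes in the lines, and HSP90AA1 differs mainly in control cells.

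Calls within one line did not establish that the response differed. In the same fit, 11 genes were called in SPARK-ON, all higher with lenalidomide (0.0685%) and none lower (0%), and 7 in control, 6 higher (0.0374%) and 1 lower (0.00623%), with 0 called in both. These counts rest on a spread pooled over both lines. The biological coefficient of variation, the fitted spread between replicates, was 4.71% in SPARK-ON fitted alone. That fit called 263 genes higher and 118 lower of 14652 tested. Control fitted alone had 12.9% and 0 called of 14666 tested, with 295 at an unadjusted p below 0.05. Each fit of 1 line used its own filter, so its base differs from the 16056 genes of the joint fit. Of the 11, 10 had the same sign in control and 8 of these an unadjusted p below 0.05 there. The 11 dropped to between 0 and 5 when any 1 SPARK-ON library was left out, and became 67 without control DMSO replicate 1. The 7 became 0 without either control lenalidomide library, 21 without control DMSO replicate 1, and 2 or 3 without any other single library.

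For most of the 11, the interval of the difference spanned both signs, which does not show that the lines responded alike. L1CAM, a neural adhesion molecule, rose in SPARK-ON by 0.94, had a control change of 1.40, and had a difference of -0.45 (-1.05 to 0.14). DIO2, which activates thyroid hormone, rose by 0.67 against a control change of 0.46 (difference 0.21, -0.08 to 0.49). PLAU, the urokinase protease, rose by 0.51 against 0.33 (0.18, -0.08 to 0.44), PLK2, a kinase of the stress response, by 0.42 against 0.22 (0.20, -0.04 to 0.44), and ABCC3, an efflux transporter, by 0.50 against 0.34 (0.16, -0.11 to 0.43). CPA4 (difference -0.14, -0.53 to 0.25) and C3, a complement component (-0.26, -1.14 to 0.62), were also called in SPARK-ON, and C3 was below 1 CPM in control cells.

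The other 4 of the 11 had an unadjusted p below 0.05 for the difference. They were FBXO32, above, KCNJ2, a potassium channel (0.74, 0.28 to 1.204), DKK1, a secreted Wnt inhibitor (0.34, 0.04 to 0.64), and ANXA8 (-2.61). ANXA8 was at 0, 0 and 0.0478 CPM in control DMSO and at 0.379 and 0.160 CPM with lenalidomide, so its fitted difference rests on a few reads, and it has near-identical paralogs.

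Of the 7 genes called in control, GNAZ, LYPD6, SEMA6B and RBKS had an unadjusted p below 0.05 for the difference. RBKS, a ribokinase that overlaps MRPL33 and BABAM2, was at 1.07 to 2.198 CPM in control DMSO and at 4.84 and 5.88 CPM with lenalidomide (difference -1.43, -2.32 to -0.54). The other 3 were RHOB, a small GTPase (-0.10, -0.38 to 0.18), ZNF692, a zinc finger protein that lenalidomide analogs recruit to cereblon (-0.27, -0.57 to 0.04), and POSTN, a matrix protein. POSTN was at 0.717 to 2.02 CPM in control DMSO and at 7.77 and 8.66 CPM with lenalidomide, and below 0.25 CPM in SPARK-ON, where its difference (-0.97, -4.73 to 2.79) could not be resolved.

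The 24 gene lists were read by their counts and medians, beside 50.9% of all genes with a difference above 0 and a median of 0.0048. No member of any list was called. The lists were chosen with earlier results of these data known, so the counts and medians of every list are descriptions only. Of 22 tested genes of growth arrest and differentiation, 19 had a difference above 0, with a median of 0.25, and the median change was 0.12 in SPARK-ON and -0.02 in control. CDKN1A, NDRG2, NDRG1 (0.29), GAS1 (0.43) and DKK1 (0.34) had an unadjusted p below 0.05, and the value of NDRG2 (2.99) rests on levels below 1 CPM in control cells. Of 26 TGF-beta and YAP response genes, 22 lay above 0 (median 0.14), with AMOTL2, a Hippo pathway scaffold, at 0.29, and of 27 interferon-stimulated genes 19 did (median 0.17).

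Chaperones lay mostly below 0. Of 14 tested heat shock proteins and chaperones, 12 had a difference below 0, with a median of -0.13. The median change was -0.10 in SPARK-ON and 0.05 in control. HSP90AA1, HSPD1, the mitochondrial chaperonin (-0.26), HSPH1, an HSP70 exchange factor (-0.25), DNAJA1, an HSP70 cochaperone (-0.22), and HSPA8, the constitutive HSP70 (-0.20), had an unadjusted p below 0.05. HSPD1 was at 2010, 1956 and 2033 CPM in SPARK-ON DMSO and 1789, 1738 and 1797 CPM with lenalidomide, and at 1693, 1630 and 1658 CPM in control DMSO and 1796 and 1743 CPM with lenalidomide. Neither line's groups overlapped, in opposite directions. HSPD1 overlaps HSPE1, MOB4 and HSPE1-MOB4 on the other strand, so part of its reads is uncertain as well.

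Classes of genes known to be raised by n-Myc lay slightly below 0. Of 34 ribosome biogenesis genes, 26 had a difference below 0 (median -0.087), and of 29 genes of nucleotide, one-carbon and polyamine synthesis, 24 did (median -0.08). Their median changes were -0.13 and -0.11 in SPARK-ON and -0.05 and -0.01 in control. LYAR, a nucleolar growth regulator (-0.37, -0.65 to -0.09), and PAICS, an enzyme of purine synthesis (-0.22, -0.41 to -0.04), had unadjusted p-values below 0.05, as did NPM1, a nucleolar chaperone (-0.18). NOP2, a nucleolar RNA methyltransferase, had one in the other direction (2.25, 0.29 to 4.20), at levels of 0.0532 to 1.63 CPM. The MYC and MAX network (11 of 19 above 0, median 0.04), cytosolic ribosomal proteins (25 of 57, median -0.01) and cell cycle genes (12 of 30, median -0.02) stood close to all genes.

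In other lists, single members had the larger values. Of 24 immediate early and MAP kinase feedback genes 15 lay above 0 (median 0.08), with DUSP4, a MAP kinase phosphatase, at 0.58 and FOSL1, an AP-1 subunit, at -0.38. Of 30 hypoxia and glycolysis genes 14 lay above 0 (median -0.06), with HK2, the inducible hexokinase, at -0.41 and P4HA1, a collagen hydroxylase, at -0.28. In that list 4 genes below 0 and 1 above 0 had an unadjusted p below 0.05, and differences ran from -1.2 to 0.57. Of 20 NF-kappaB and cytokine genes 13 lay above 0 (median 0.18), with TNFAIP3, a brake on NF-kappaB, at 0.88 and TNFRSF9, a costimulatory receptor, at -1.07, on control levels below 1 CPM. Of 32 matrix and adhesion genes 21 did (median 0.09), with TIMP3, a metalloproteinase inhibitor, at 0.50, and of 25 mesenchymal identity genes 18 did (median 0.10), with RUNX2 at 0.35 and SOX9 at 0.26, and with FOSL1 at -0.38 and SIX4 at -0.33 in the other direction.

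**Figure D4:**
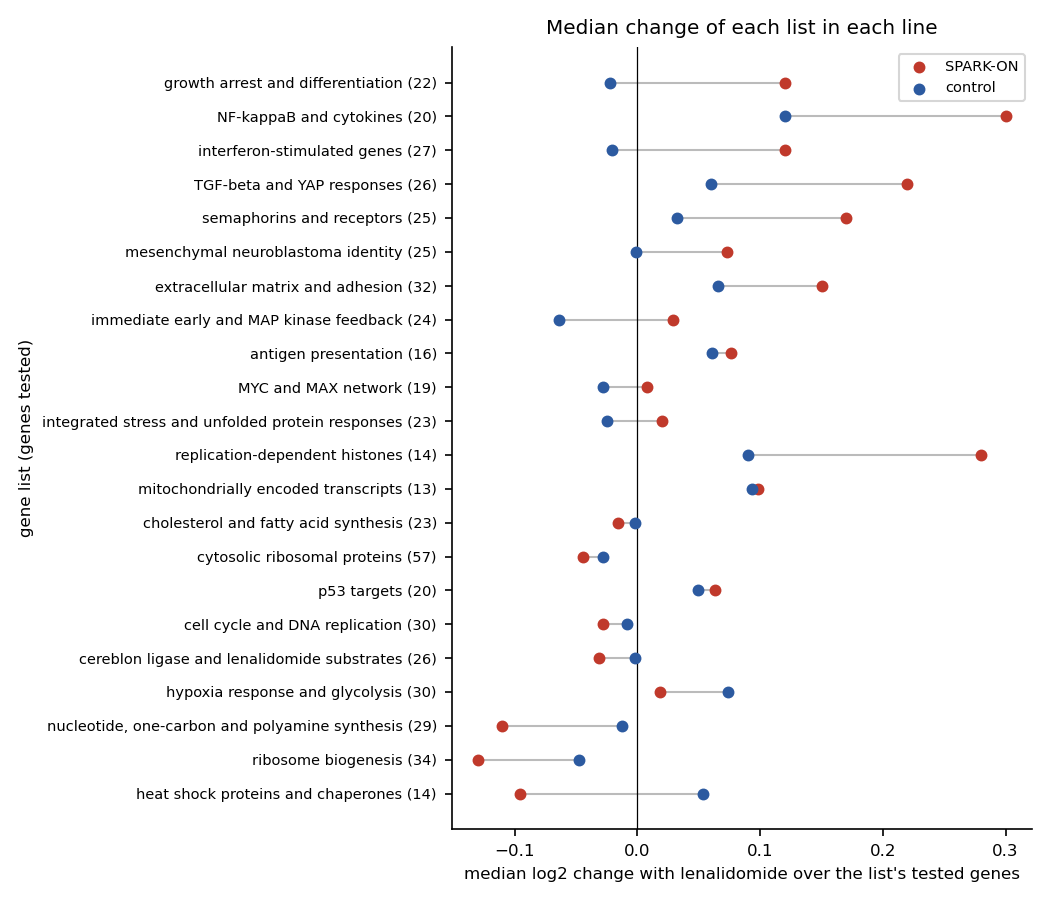
Median log2 change with lenalidomide (x axis) over the tested genes of each of the lists with at least 13 tested genes (y axis, number tested in brackets), in SPARK-ON (red) and control (blue). Growth arrest genes have medians of 0.12 and -0.02, and chaperones of -0.10 and 0.05.

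A further 3 fits were added after the planned fit had given 0 calls and the 2 control libraries had been seen to stand apart, so their calls are descriptions of what such a choice does and do not replace the result above. The first gave control DMSO replicate 1 and control lenalidomide replicate 2 a term of their own, and called 16 genes higher (0.0997%) and 12 lower (0.0747%) with edgeR. The second left both libraries out, which leaves 1 control library with lenalidomide whose spread is assumed to be that of the other groups, and called 26 higher (0.162%) and 38 lower (0.237%). The third used the length index as a covariate, and called 13 higher (0.081%) and 13 lower (0.081%). The biological coefficient of variation was 9.40% in the planned fit and 5.72%, 5.16% and 5.38% in these.

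The added fits shared 16 genes, which are 57.1%, 25.0% and 61.5% of their calls, of 78 called in any. The first 2 added fits act on the same 2 control libraries. The third acts on all 11 libraries through the length index, which was highest in those 2. All 3 draw on the same counts. Shared genes and like estimates are therefore not separate support. GNAZ, FBXO32, IGFBP4, CDKN1A, RGMA and HSP90AA1 were among them, 6 of the 20 genes named by rule for the difference, and so was HSPD1. The estimates of GNAZ were 1.57, 1.85 and 1.57 in the added fits against 1.58 in the planned one, and those of CDKN1A 0.72, 0.80 and 0.69 against 0.68. IGFBP4 had differences of 0.59, 0.61 and 0.57 and FBXO32 of 0.53, 0.56 and 0.52 in the added fits, against 0.56 and 0.52 in the planned one. The other 9 were chosen after their values were seen. EHF (0.56 in the planned fit), LINC00963 (0.53), FSCN1 (0.32), SQSTM1 (0.26) and KRT81 (0.29) lay above 0, and STRBP (-0.38), NUDCD1 (-0.34), SRPK1 (-0.45) and KIF15 (-0.44) below 0. In the planned fit the unadjusted p of these 9 ranged from 0.00156 for EHF to 0.0663 for KRT81.

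**Figure D5:**
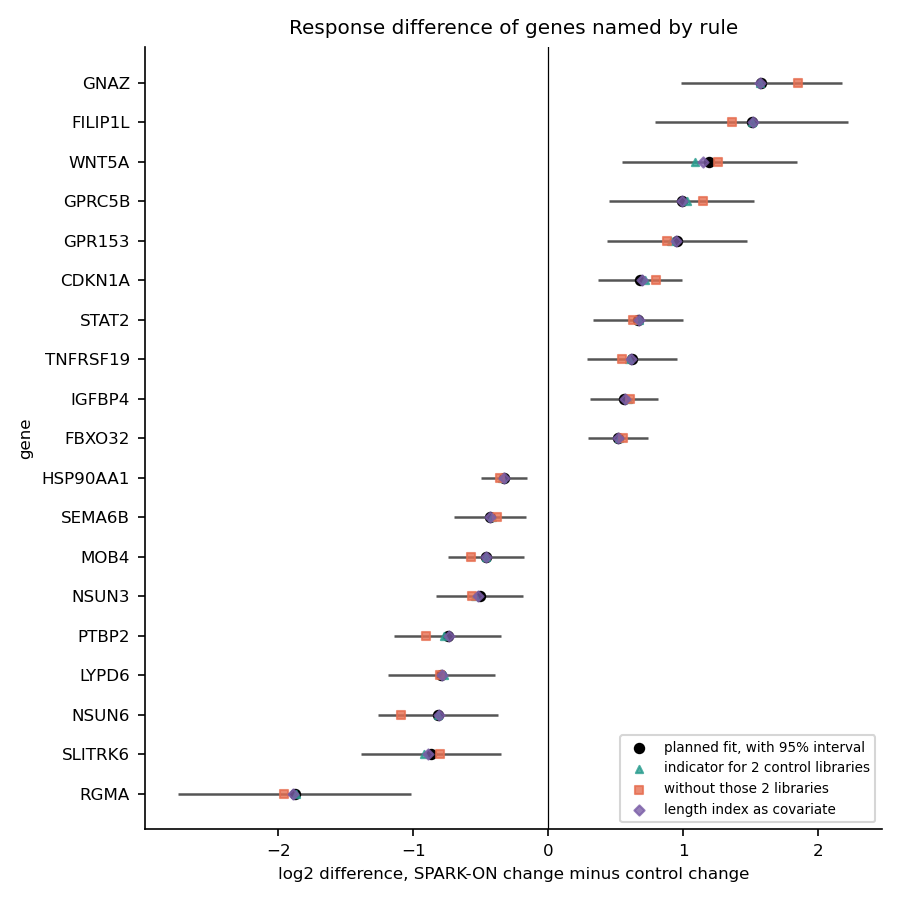
Response difference on the log2 scale (x axis) of 19 genes named by rule (y axis), with the planned fit's value and 95% interval (black) and the values of the 3 fits added after seeing the data (coloured). All 19 intervals exclude 0 before adjustment for 16056 genes, as the rule picks genes of the smallest p, and no gene passes after it.

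Promoters were searched for the canonical E-box CACGTG, which reads the same on both strands, in the 250 bases before the RefSeq start (GRCh38.p14). Of the 20 named genes 16 matched the table, and 0 of these 16 windows held it, against 6.34% of 35116 promoters. This says only that these letters are not in these windows.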

How the data were processed

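Members and gene lists were chosen with earlier results of these data known. The authors deposited raw counts per gene. Per the submitters' processing notes, FastQC, fastp, HTSeq, edgeR and build hg38 were used; for the aligner, annotation, strand setting and versions, no source used here has an entry. The labels identified 11 count columns, and 3 columns fitting no label were left out; the 3 baseline samples were not used here. Genes passing filterByExpr (minimum count 10) were scaled by TMM and tested with edgeR 4.0.16 (quasi-likelihood, R 4.3.3) in 1 fit of 4 groups, with Benjamini-Hochberg adjustment over all genes; changes are log2, two-sided, with intervals at 95%. Checks used limma 3.58.1 and DESeq2 1.42.0. Only the planned fit and the fit with the length index were run on simulated counts. The simulated spread did not differ between the lines, and for the length fit it was set below the fitted spread. Positions and transcript lengths are from GENCODE 29. Named genes were MYCN, MYC, MAX and CRBN, called genes or else the 10 of smallest p in each direction with a mean of at least 5 CPM, genes called in either line, and 2 members of smallest p per list. 1 of these genes is not reported here. Other settings, and 3 fits added after the data were seen, are described in the closing section. Same-numbered SPARK-ON samples did not deviate together, and replicate numbers were not treated as pairs in either line. In control, the correlations could not decide on pairing, since the 2 lenalidomide samples deviate from their mean by equal and opposite amounts. Depth was 6614671 to 21511684 reads per library; a count of 0 allows up to 0.454 CPM in the smallest library (3 reads), for counting error only.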

Additional observations from a re-analysis of the deposited data

How the results depend on the processing

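The response difference gave 0 calls in either direction under each setting run, apart from the 3 added fits, except 2: without a filter 1 gene was higher (GNAZ), and DESeq2 called 3 higher. The 3 fits added after the planned one had given 0 calls, in the order tried, gave 16 higher and 12 lower with an indicator for both control libraries that stood apart, 26 and 38 without these libraries, and 13 and 13 with the length index. Which fit describes the libraries best was not tested. The counts at an unadjusted p below 0.05 do not share a base. A mean of 5 CPM tests fewer genes than the 16056, and no filter tests more. In the planned fit, 380 genes with that mean had such a p, 3.57% of these genes. The indicator and length fits tested the same 16056 genes. Their shares at that p exceed the planned 4.17%, and what the threshold would give if no gene differed. Both were chosen after the data were seen. Genes at an unadjusted p below 0.05 numbered 669, but 1119 without a filter, 384 at a mean of 5 CPM, 437 with weights per line, 1582, 1981 and 1478 in the added fits, and 509 to 1419 leaving out 1 library, highest without control DMSO replicate 1 and 1171 without control lenalidomide replicate 2.

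With a replicate block there were 0 calls and 494 genes at an unadjusted p below 0.05, and 0 and 384 with the replicate block nested within line. The correlations of same-numbered samples were -0.0028 to 0.015 in SPARK-ON and -0.18 and -0.13 in control, and with 3 against 2 control samples nothing was crossed. The same DMSO samples had 0.18 and 0.13 with the other control lenalidomide sample, which mirrors the first by construction, so the control values do not decide on pairing.

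Calls in SPARK-ON (11) became 381 in a fit of that line alone, 152, 252 and 184 in the added fits, and 0 to 67 leaving out 1 library. Calls in control (7) became 0 in a fit of that line alone, 162, 109 and 89 in the added fits, and 0 to 21 leaving out 1 library. The 26 calls of the length fit became 56 without a filter and 11 to 161 leaving out 1 library, the highest without control DMSO replicate 1 and 130 without control lenalidomide replicate 2.

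Leaving out 1 library, the difference ranged from -0.048 to 0.20 for MYCN, -0.30 to 0.0048 for MAX and -0.85 to 0.12 for C3. Of the named genes, these changed sign: without control lenalidomide replicate 2, MYCN (-0.048), MAX (0.0048) and C3 (0.12); without both control libraries, C3 (0.30) and PSMB10 (0.012); after thinning to the smallest library, CPA4 (0.15) and ABCC3 (-0.047). The causes were not tested.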
